A study of Homo sapiens with 4 samples.

Results

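The ribosome biogenesis factors are 40 genes of 58735 in the count table, taken by symbol from a list of nucleolar, rRNA processing and RNA polymerase I genes. All 40 were found under the listed symbol, each on a single row, and all 40 passed the filter on low counts. They were measured by RNA-seq in SW1990 cells, an established human pancreatic cancer line. Cells received vehicle (2 libraries) or gomisin G at 10 µM (2 libraries), in each case for 24 h. Gomisin G is a lignan from plants of the genus Schisandra. The labels do not name the vehicle, and all 4 libraries come from the same line. Nothing in the labels states that the replicates are separate cultures. The p-values below therefore reflect only how far these libraries spread, and that spread may be technical.

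Ribosomes are assembled mainly in the nucleolus. RNA polymerase I copies the ribosomal DNA into a long precursor, which small nucleolar RNA-protein particles (snoRNPs) modify and a large processome folds and cuts, while separate sets of factors build the small and the large subunit. Growing cells, tumour cells among them, use much of their transcription and energy on this route, and many of its genes are known targets of the transcription factor MYC, which binds the E-box CACGTG.

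Total counts per library ranged from 14580848 to 15245770, and a count of 3, the floor for a gene listed at 0, equals 0.197 to 0.206 CPM (a gene's counts scaled to the library total). This floor covers counting error only. The epithelial marker genes KRT8, KRT18, KRT19 and EPCAM were high in every library, at 485 CPM or more by library total, whereas KRT7 was at 0.872 to 1.995 CPM. The 10 epithelial markers summed to 8527 to 12040 CPM, and the 10 fibroblast markers to 11.7 and 14.0 CPM in vehicle and 14.4 and 18.9 CPM with gomisin G, with COL1A2, LUM and THY1 at 0. The leukocyte markers PTPRC and CD3E were among those at 0, and the list of 7 summed to 4.92 to 6.24 CPM. Mitochondrial transcripts held 6.03 and 7.05% of counts in vehicle and 8.45 and 6.80% with gomisin G. Counts varied more between the gomisin G libraries than between the vehicle libraries, with a chi-square of 37.2 against 6.98 per gene, so each gomisin G library is shown on its own. The part of these differences in the results was not tested. In such bulk samples, fewer cells with a transcript and less of it per cell cannot be told apart.

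The start-site sequences of the members were searched on both strands of the 250 bases before the RefSeq start. The motifs were the E-box, the palindrome bound by the nuclear respiratory factor NRF1 (GCGCA followed at once by its reverse complement), CCAAT (NF-Y), CCGGAAG (ETS factors) and GGGCGG (SP1). RefSeq (GRCh38.p14) gave a promoter for 32 members. Not matched were BOP1, NOLC1, NOP58, POLR1E, RRP12, RRS1, TCOF1 and URB2. The E-box was found in 3 of the 32, which is 9.38%, against 8.91% of the 10555 promoters of tested genes. The NRF1 letters were found in 4 of the 32, which is 12.5%, against 1.95%. CCAAT was in 11 members (34.4% against 34.8%), CCGGAAG in 9 (28.1% against 15.8%) and GGGCGG in 23 (71.9% against 67.1%). A match is a description of these letters and not a bound site. The stretches that hold the matches are shown 5′ to 3′ for the 7 genes with an E-box or NRF1 match, with that motif in capitals. Stretches were shortened to 30 bases where annotated exons covered more than 30 of their bases. Exons annotated in GENCODE cover all 30 bases shown for UTP4, DDX10 and MYBBP1A, so these letters are not upstream of every annotated exon. Such exons cover 27 bases of the stretch of NAT10, 30 of DKC1, 14 of NOB1 and 0 of UTP20.
NAT10, GRCh38.p14, chr11:34105529-34105628, plus strand: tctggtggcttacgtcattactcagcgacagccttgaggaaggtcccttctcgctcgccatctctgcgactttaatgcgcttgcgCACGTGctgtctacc
UTP20, GRCh38.p14, chr12:101280005-101280104, plus strand: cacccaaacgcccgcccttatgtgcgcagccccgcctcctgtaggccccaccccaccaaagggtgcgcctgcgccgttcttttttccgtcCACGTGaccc
UTP4, GRCh38.p14, chr16:69132619-69132648, plus strand: tgagagcgcgcgcgCACGTGgggccggggc
DDX10, GRCh38.p14, chr11:108665039-108665068, plus strand: gggcttctgagttcGCGCATGCGCctctgt
DKC1, GRCh38.p14, chrX:154762672-154762771, plus strand: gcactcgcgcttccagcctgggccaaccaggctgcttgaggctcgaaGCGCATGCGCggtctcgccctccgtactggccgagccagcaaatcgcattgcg
MYBBP1A, GRCh38.p14, chr17:4555385-4555414, minus strand: acacaaaccggtGCGCATGCGCcgtgccct
NOB1, GRCh38.p14, chr16:69754927-69755026, minus strand: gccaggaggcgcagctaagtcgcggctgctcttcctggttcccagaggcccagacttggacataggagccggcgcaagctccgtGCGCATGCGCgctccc
In NAT10, UTP20 and UTP4 the E-box starts 15, 10 and 16 bases before the RefSeq start. The NRF1 letters start 16 bases before it in DDX10 and 18 bases before it in MYBBP1A. NOB1 holds 2 copies, of which the nearer, shown here, starts 16 bases before the start, and in DKC1 the match lies 145 bases before it. The 3 E-box genes had log2 changes of -0.37 to -0.80 (median -0.49), and the 29 searched members without one a median of -0.26. The principal mRNAs of NAT10, UTP20 and UTP4 in GENCODE have 4002, 9025 and 2322 bases. All 12 members with 4000 bases or more, 2 of these 3 among them, had a median of -0.61. Whether the change goes with the motif was not tested. The 4 genes with the NRF1 letters spanned -0.80 to 0.04 (median -0.38), against a median of -0.31 in the other 28.

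As a group the members lay lower in gomisin G libraries than in vehicle libraries, but no single member passed the test. The 40 were chosen with earlier results of these data known, so the shares below describe the list and do not test it. The median log2 change, gomisin G minus vehicle, was -0.37 over the 40, against 0.0092 over all 15721 tested genes, and 35 of 40 were negative, against 49.3% of tested genes. Both gomisin G libraries lay below both vehicle libraries in 27 of 40 members (67.5%), against 27.3% of tested genes, and above both in 0, against 27%. By edgeR's quasi-likelihood test, with Benjamini-Hochberg adjustment over all tested genes, 0 of 40 were called at an adjusted p below 0.05, where 1.83% of tested genes were called and 0.903% were called lower. An unadjusted p below 0.05 was reached by 19 members, all lower with gomisin G, against 9.62% of tested genes lower and 10.9% higher at that level. DESeq2 called 8 members, all lower (TCOF1, NOLC1, WDR43, UTP20, MYBBP1A, DDX21, URB2 and HEATR1), against 3.18% of its tested genes called lower, and limma voom called 0, against 1.68%. The edgeR count rests on which libraries are fitted. Without gomisin G replicate 1 it was 21, all lower, against 8.85% of tested genes called lower. Without gomisin G replicate 2 it was also 21, of which 19 were lower and FBL and POLR1C higher, where 38.6% of tested genes were called and 20.1% were called lower. In both fits the spread comes from the vehicle pair alone, and the lone gomisin G library is assumed to vary like it.

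**Figure D1:**
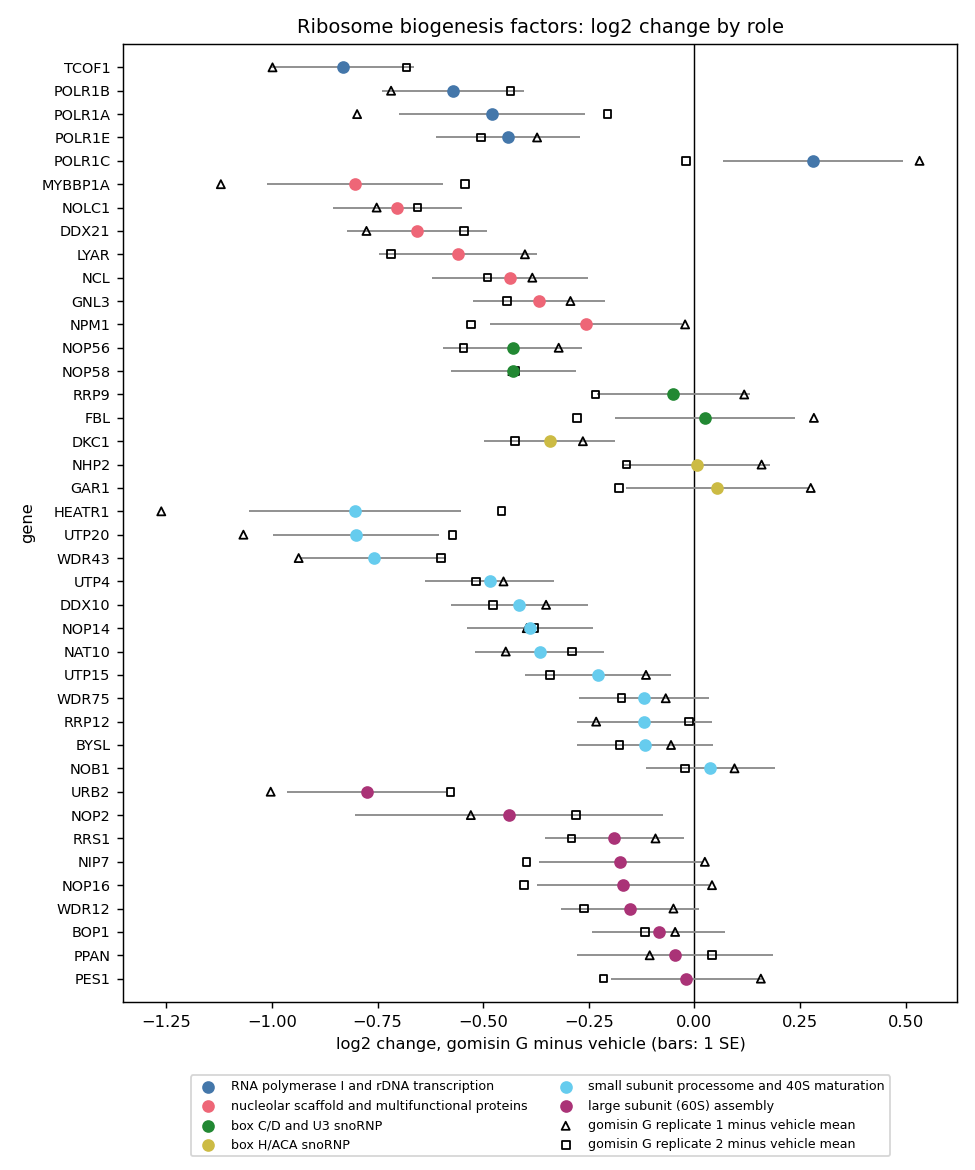
Log2 change (gomisin G minus vehicle, horizontal axis) of each of the 40 members (vertical axis), coloured by role, with bars of 1 SE from edgeR; open triangles and squares are gomisin G replicates 1 and 2, each against the vehicle mean. 35 of 40 estimates lie left of 0, and replicate 2 lies left of 0 in 39.

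The 2 gomisin G libraries differed in which members were lowest. Against the vehicle mean the median member lay at -0.31 in replicate 1 and at -0.40 in replicate 2. In replicate 1 values spread from -1.26 (HEATR1) to 0.53 (POLR1C), and 31 of 40 were negative. In replicate 2 they spread from -0.72 (LYAR) to 0.04 (PPAN), and 39 of 40 were negative. Both libraries were negative in 30 members. The gap between the gomisin G libraries had a median size of 0.23 on the log2 scale, and that between the vehicle libraries 0.083. Over all tested genes both gaps were wider, at 0.32 and 0.15.

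**Figure D2:**
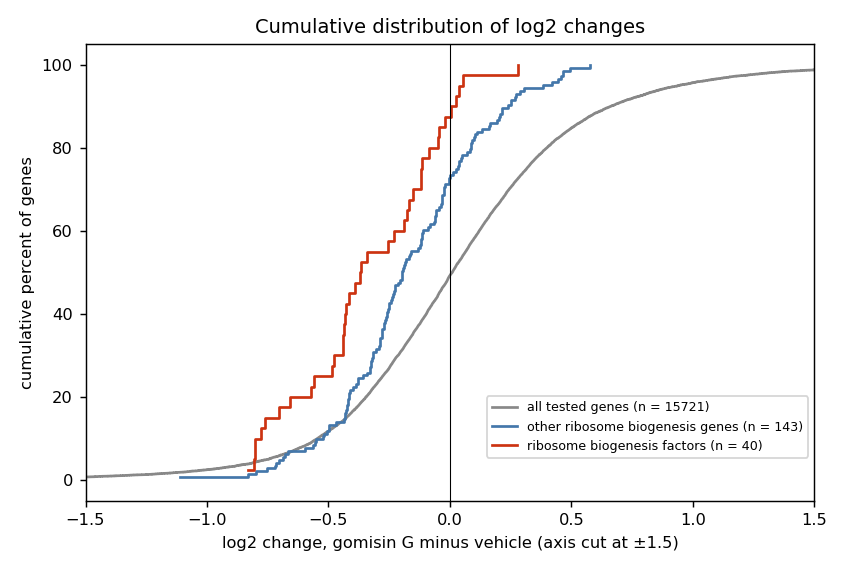
Cumulative percent of genes (vertical axis) by log2 change (horizontal axis, cut at 1.5 either side) for the 40 members, 143 other tested ribosome biogenesis genes and all 15721 tested genes. At the median the members lie at -0.37, the other pathway genes at -0.20 and all tested genes at 0.0092; in the far left tail, below the lowest member (-0.83), only the other sets have genes.

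Among genes of RNA polymerase I and ribosomal DNA transcription, the median log2 change was -0.48. Both gomisin G libraries lay below both vehicle libraries in 4 of 5 (80%), against 27.3% of tested genes. TCOF1 encodes treacle, a nucleolar scaffold for RNA polymerase I that is mutated in Treacher Collins syndrome. It measured 208 and 201 CPM in the vehicle libraries and 102 and 128 CPM in the gomisin G libraries, which did not overlap. Its log2 change was -0.83 (SE 0.17, edgeR adjusted p = 0.0548), the lowest p of the 40 members. POLR1B, the second-largest catalytic subunit, measured 80.4 and 84.1 CPM in vehicle and 49.9 and 60.8 CPM with gomisin G (log2 change -0.57, SE 0.17, edgeR adjusted p = 0.120). The groups did not overlap for POLR1B either. POLR1A, the largest subunit, had a log2 change of -0.48, made up of -0.80 in replicate 1 and -0.21 in replicate 2. POLR1E, which encodes a polymerase-associated factor, had -0.44, with -0.37 and -0.51.

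POLR1C, a subunit shared by RNA polymerases I and III, went the other way in 1 library. It measured 40.1 and 35.9 CPM in vehicle and 54.9 and 37.4 CPM with gomisin G, so replicate 1 was high and replicate 2 lay within the vehicle range (log2 change 0.28, SE 0.21, edgeR adjusted p = 0.482). Its exons share 18.2% of their bases with genes on the opposite strand. Of these, XPO5 had 2111 and 2378 counts in vehicle and 1548 and 2005 with gomisin G, YIPF3 981 and 1144 against 1757 and 1482, and LRRC73 86 and 96 against 219 and 191. With the strand setting not given in the sources used here, reads of overlapping genes on opposite strands cannot be told apart. This limit also bears on NHP2 (27.42% of exon bases shared with the opposite strand), HEATR1 (23.15%), NOB1 (20.25%), NIP7 (20.15%), NOP16 (19.95%) and NOP14 (17.1%).

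All 7 nucleolar scaffold and multifunctional genes had a negative log2 change (median -0.56). In 6 of 7 (85.7%) both gomisin G libraries lay below both vehicle libraries, against 27.3% of tested genes. NOLC1 encodes the nucleolar phosphoprotein Nopp140, which binds snoRNPs and resembles treacle in its repeats. It measured 249.98 and 245 CPM in vehicle and 147 and 157 CPM with gomisin G, so both gomisin G libraries were low (log2 change -0.70, SE 0.15, edgeR adjusted p = 0.0606). The RNA helicase gene DDX21, whose product works with both RNA polymerases I and II, measured 348 and 329.9 CPM in vehicle and 198 and 232 CPM with gomisin G (log2 change -0.66, SE 0.17, edgeR adjusted p = 0.0849). MYBBP1A, which encodes a nucleolar MYB-binding protein, had a log2 change of -0.80 that was -1.12 in replicate 1 and -0.54 in replicate 2. LYAR, a nucleolar zinc finger gene, had -0.56, and it was lower in replicate 2 (-0.72) than in replicate 1 (-0.40).

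The most abundant members had smaller estimates than these 4 genes. NPM1 encodes nucleophosmin, the major granular protein of the nucleolus, and had the highest level per length, 316 CPM per kilobase of exon averaged over the 4 libraries. It measured 1397 and 1233 CPM in vehicle and 1293 and 909 CPM with gomisin G. Replicate 1 lay within the vehicle range and replicate 2 below it (log2 change -0.26, SE 0.23, 95% interval -0.78 to 0.27, edgeR adjusted p = 0.544). NCL, which encodes nucleolin, came second at 165 CPM per kilobase, and its highest library (194) lay under the lowest of NPM1 (237). Its log2 change was -0.44, with -0.38 and -0.49 in the 2 replicates. GNL3, the nucleostemin gene, had -0.37, with -0.29 and -0.44.

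**Figure D3:**
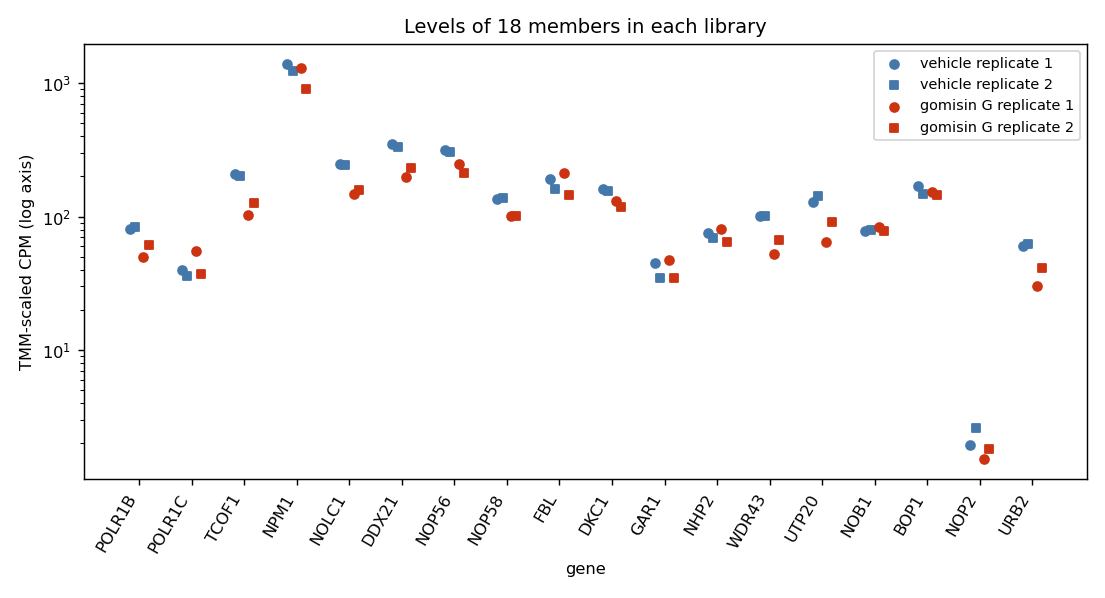
TMM-scaled CPM on a log axis (vertical) of 18 members (horizontal axis) in each of the 4 libraries, vehicle in blue and gomisin G in red, circles for replicate 1 and squares for replicate 2. TCOF1, NOLC1, DDX21, WDR43, UTP20 and URB2 show both red points under both blue points, whereas for POLR1C, FBL, GAR1 and NHP2 they overlap.

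Among the snoRNP genes, scaffold genes had negative estimates in both gomisin G libraries. Several partners lay above the vehicle mean in replicate 1 and below it in replicate 2. In box C/D snoRNPs, which guide ribose methylation of rRNA, the paired scaffold genes NOP56 and NOP58 had near-equal log2 changes of -0.43 and -0.43 (SE 0.16 and 0.15, edgeR adjusted p = 0.196 and 0.164). NOP56 measured 317 and 305 CPM in vehicle and 249 and 213 CPM with gomisin G. NOP58 measured 136 and 138 CPM in vehicle and 102 and 102 CPM with gomisin G, the closest replicate values of the group. FBL, the methyltransferase fibrillarin of the same particle, measured 191 and 162 CPM in vehicle and 214 and 145 CPM with gomisin G. Its replicate 1 was above and its replicate 2 below both vehicle libraries (log2 change 0.025, SE 0.21, 95% interval -0.47 to 0.51). RRP9, the protein specific to the U3 snoRNP, likewise had 0.12 in replicate 1 and -0.23 in replicate 2. Whether NOP56 and NOP58 differ from FBL and RRP9 was not tested.

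In box H/ACA snoRNPs, which guide pseudouridylation, the pseudouridine synthase gene DKC1 (dyskerin) measured 162 and 154 CPM in vehicle and 132 and 118 CPM with gomisin G (log2 change -0.34, SE 0.15, edgeR adjusted p = 0.256). Its partners overlapped between groups. GAR1 measured 44.7 and 34.5 CPM in vehicle and 47.5 and 34.7 CPM with gomisin G, so the replicate 1 libraries of both groups were the higher ones (log2 change 0.054, SE 0.22, 95% interval -0.44 to 0.55). NHP2 measured 75.5 and 68.6 CPM in vehicle and 80.4 and 64.4 CPM with gomisin G (log2 change 0.0059, SE 0.17, 95% interval -0.40 to 0.41). The sign of FBL and GAR1 turned negative with the trend on summed exon length removed (-0.17 and -0.15), as did that of NHP2 (-0.20). NOP56, NOP58 and DKC1 have principal mRNAs of 2400, 2046 and 2577 bases. Those of FBL, RRP9, GAR1 and NHP2 are shorter (1160, 1578, 1224 and 865). Against the median of tested protein-coding genes of like length, all of these genes lay lower in both gomisin G libraries. In replicates 1 and 2, FBL lay at -0.18 and -0.32, RRP9 at -0.19 and -0.29, GAR1 at -0.18 and -0.22, and NHP2 at -0.39 and -0.20. The part of length in this split was not tested.

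Among the 12 small subunit genes 11 had a negative log2 change (median -0.38). In 10 of 12 (83.3%) both gomisin G libraries lay below both vehicle libraries, against 27.3% of tested genes. WDR43 belongs to the early UTP-A complex, which links transcription of the precursor to its processing. It measured 101 and 101 CPM in vehicle and 52.7 and 66.6 CPM with gomisin G (log2 change -0.76, SE 0.17, edgeR adjusted p = 0.0686). UTP20, a large HEAT-repeat scaffold, measured 129 and 142 CPM in vehicle and 64.5 and 91.0 CPM with gomisin G (log2 change -0.80, SE 0.20, edgeR adjusted p = 0.0805). For both genes gomisin G replicate 1 was the lowest library.

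The other UTP-A genes spread widely. HEATR1 had a log2 change of -0.80, the widest SE of the 12 (0.25), and measured 131 and 138 CPM in vehicle and 55.9 and 97.9 CPM with gomisin G, a gene given library by library after its values were seen. Of its exon bases 23.2% are shared with genes on the opposite strand, chiefly LGALS8. UTP4 had -0.49, with -0.45 and -0.52 in the 2 replicates, while UTP15 had -0.23 and WDR75 had -0.12. The SEs of UTP15 and WDR75 were 0.17 and 0.15. The acetyltransferase gene NAT10, the helicase gene DDX10 and the processome gene NOP14 had log2 changes of -0.37, -0.42 and -0.39. In all 3 both gomisin G libraries lay below both vehicle libraries. BYSL (bystin) and the export factor gene RRP12 had -0.12 each. NOB1, the endonuclease that makes the final cut at the end of the small subunit rRNA, measured 78.2 and 79.1 CPM in vehicle and 84.0 and 77.5 CPM with gomisin G (log2 change 0.038, SE 0.15, 95% interval -0.31 to 0.39), and its libraries overlapped.

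The 9 large subunit genes had a median log2 change of -0.17, and all 9 were negative. In 4 of 9 (44.4%) both gomisin G libraries lay below both vehicle libraries, against 27.3% of tested genes. The 3 genes of the PeBoW complex, which is needed for processing of the large subunit rRNA, had estimates from -0.15 to -0.019. BOP1 measured 169 and 148 CPM in vehicle and 153 and 146 CPM with gomisin G (log2 change -0.085, SE 0.16, 95% interval -0.45 to 0.28). PES1 had -0.019 (95% interval -0.43 to 0.39) and WDR12 had -0.15 (95% interval -0.53 to 0.22). WDR12 is given library by library outside the rule for such values. Both of its gomisin G libraries (57.4 and 49.6 CPM) lay below both vehicle libraries (58.6 and 60.3 CPM). A value as low as the -0.43 of NOP56 lies within all 3 intervals. URB2, a nucleolar assembly factor gene, had the lowest estimate of the 9. It measured 60.6 and 61.8 CPM in vehicle and 30.5 and 41.0 CPM with gomisin G (log2 change -0.78, SE 0.19, edgeR adjusted p = 0.0796). RRS1, NIP7 and NOP16, assembly factors of the pre-large subunit, had -0.19, -0.18 and -0.17. NIP7 and NOP16 were at or slightly above the vehicle mean in replicate 1 (0.025 and 0.041) and below it in replicate 2 (-0.40 and -0.40).

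NOP2 and PPAN had the lowest levels of the 40, and these levels are uncertain. NOP2, an rRNA methyltransferase gene, had 28 and 39 counts in vehicle and 22 and 29 counts with gomisin G, which is 1.93 and 2.62 against 1.52 and 1.83 CPM (log2 change -0.44, SE 0.36, edgeR adjusted p = 0.517). Of its exon bases 54.4% are shared with AC006064.6, an annotated protein-coding gene on the same strand with 0 counts in all 4 libraries. PPAN, a large subunit factor gene, shares 59.8% of its exon bases on the same strand, chiefly with the read-through gene PPAN-P2RY11, which also had 0 counts in all 4 libraries. PPAN, given library by library after its values were seen, measured 11.8 and 8.68 CPM in vehicle and 9.39 and 10.4 CPM with gomisin G (log2 change -0.046). NOP2 averaged 0.422 and PPAN 3.90 CPM per kilobase, against 4.26 for DDX10, the next member. Without NOP2 and PPAN the members' median was -0.37, as with them. The part of shared exons in these levels was not tested.

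**Figure D4:**
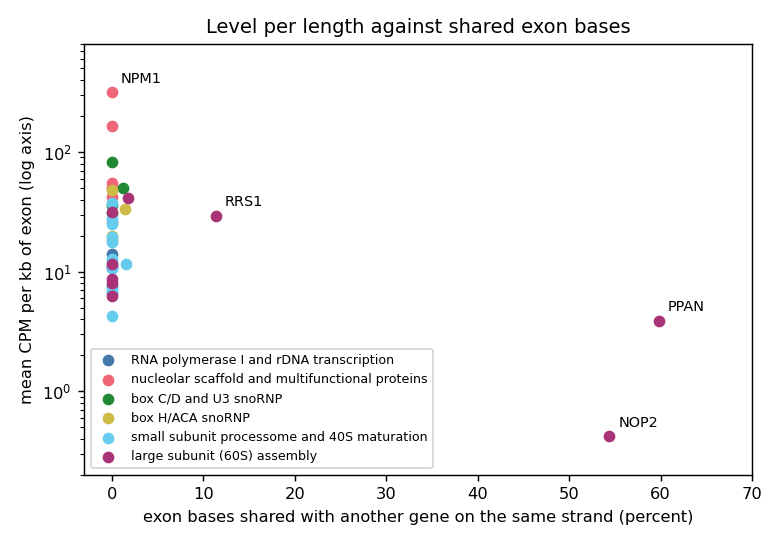
Mean level over the 4 libraries in CPM per kilobase of exon (log axis, vertical) against the percent of exon bases shared with another gene on the same strand (horizontal), 1 point per member, coloured by role. NOP2 (0.422) and PPAN (3.90) are the lowest points and the 2 points farthest right, at 54.4% and 59.8%.

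The small nucleolar RNA genes inside the members gave few counts. By coordinates, 26 such genes lie within 8 members on the same strand, and together they held 45 and 67 counts in vehicle and 34 and 43 with gomisin G. Of the 26, 15 lie wholly in introns, and 3 of these were at 0 in every library. The other 11, in DKC1, GNL3, NOP56 and NOP58, touch an annotated exon of the host and had 0 counts in every library. The snoRNA counts were not tested between the groups.

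The members' log2 changes went with the length of the mRNA. Over the 40 members Spearman's rho between the length of the principal mRNA in GENCODE and the log2 change was -0.684, against -0.394 over 12672 tested protein-coding genes. It was -0.760 for gomisin G replicate 1 and -0.367 for replicate 2, against -0.524 and -0.108 over all of these genes. The difference between the vehicle libraries, replicate 2 minus replicate 1, also went with length among the members (rho 0.620), against 0.311 over all. Longer members thus tended to lie lower in vehicle replicate 1 relative to vehicle replicate 2. These are correlations across genes, which share the 4 libraries and are not independent replicates. With the summed exon length of the files in place of the mRNA length, the members' rho was -0.530.

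The 12 members with an mRNA under 2000 bases had a median log2 change of -0.048, the 16 from 2000 to under 4000 bases -0.38, and the 12 of 4000 bases or more -0.61. The same classes of all tested protein-coding genes had medians of 0.23, 0.016 and -0.19. Replicate 1 was the lower gomisin G library in 10 of the 12 longest members and 1 of the 12 shortest, against 3621 of 4480 and 549 of 3194 tested protein-coding genes in these classes, which are similar shares. Set against the median of tested protein-coding genes of like length, in 20 length classes, 35 of 40 members lay below it in replicate 1 and 39 of 40 in replicate 2, with 35 below it in both. The members' median distance below it was -0.35 in replicate 1 and -0.37 in replicate 2, so the 2 libraries were closer on this measure than in the uncorrected values. The edgeR fit with a length trend taken out of each library used the summed exon length, not the mRNA length. It called 9 of 40 members, all lower, against 2.93% of tested genes called lower.

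**Figure D5:**
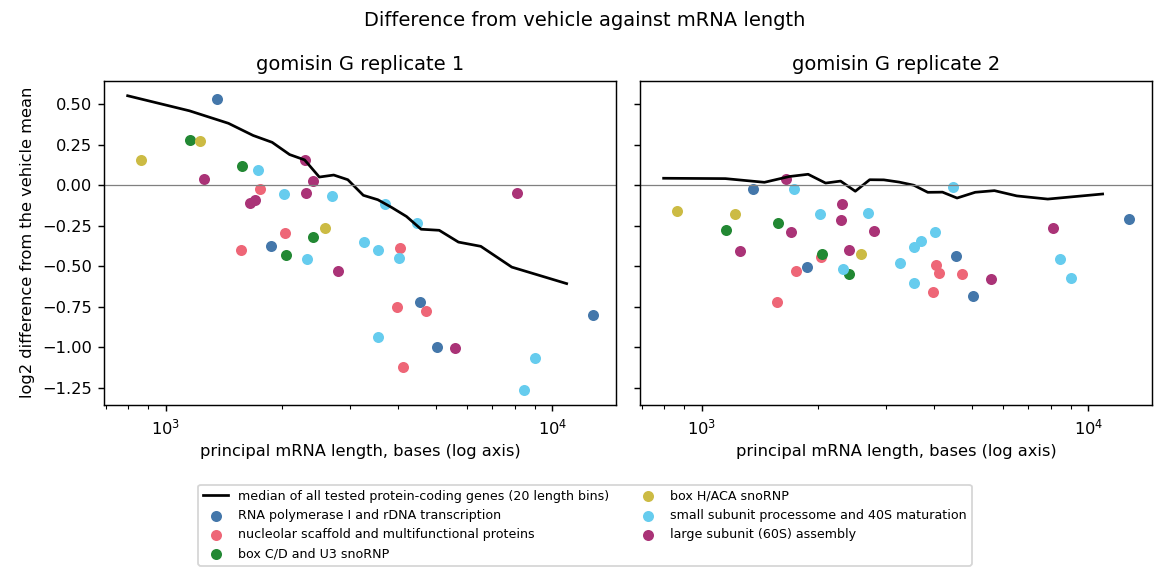
Log2 difference from the vehicle mean (vertical axis) against principal mRNA length in bases (log axis, horizontal) for the 40 members, coloured by role, in gomisin G replicate 1 (left) and 2 (right); the black line is the median of tested protein-coding genes in 20 length classes. The line falls from 0.55 to -0.61 in replicate 1 and from 0.044 to -0.053 in replicate 2, and 35 and 39 of 40 members lie under it.

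The 9 members called with the length trend removed were DDX21, LYAR, MYBBP1A, NOLC1, NOP58, TCOF1, URB2, UTP20 and WDR43. NOLC1 then had a log2 change of -0.74 (edgeR adjusted p = 0.0187). LYAR, with a summed exon length of 2319 bases and an mRNA of 1569, had -0.73 (edgeR adjusted p = 0.0247). TCOF1, with a summed exon length of 11439 bases and an mRNA of 5038, had -0.62 (edgeR adjusted p = 0.0285). The median over the 40 was -0.33, close to the -0.37 without this step.

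Of 144 other ribosome biogenesis genes, listed by role, 143 were tested, and 1 fell while 0 rose, where 0.903% of tested genes were called lower. A count of 1 is near that background. Their median log2 change was -0.20, and 104 of 143 were negative. In 78 (54.5%) both gomisin G libraries lay below both vehicle libraries, against 27.3% of tested genes. The gene that fell was TAF1A, which encodes a subunit of the SL1 factor that brings RNA polymerase I to its promoter. TAF1A measured 16.2 and 15.1 CPM in vehicle and 7.05 and 7.45 CPM with gomisin G, a log2 change of -1.11 (SE 0.20, edgeR adjusted p = 0.0386). POLR1F, a further polymerase I subunit, had -0.60 (edgeR adjusted p = 0.101). RRN3, the polymerase I initiation factor, named after its values were seen, had -0.29.

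The 48 other small subunit genes had a median of -0.20, and 13 of them were positive. The 2 with the lowest p were WDR36 at -0.83 (edgeR adjusted p = 0.0583) and RRP1B at -0.75 (edgeR adjusted p = 0.0641). RRP1B is counted here only because the list used placed it in this role. UTP3, named after its values were seen, had 0.49 (edgeR adjusted p = 0.171), and both of its gomisin G libraries lay above both vehicle libraries. The 48 tested large subunit genes had a median of -0.25. In 32 (66.7%) both gomisin G libraries lay below both vehicle libraries, against 27.3% of tested genes. URB1, the partner of URB2 in yeast, had -0.80 (edgeR adjusted p = 0.102) and the helicase gene DDX18 had -0.57 (edgeR adjusted p = 0.112). The 16 genes of the exosome and related nucleases had a median of -0.24, with EXOSC9 at -0.67 and MTREX at -0.47 (edgeR adjusted p = 0.115 and 0.151).

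The estimates of the other snoRNP and scaffold genes were of both signs. The 7 other box C/D genes, mostly assembly factors, had a median of 0.083, with NUFIP1 at -0.50 and SNU13, which binds the guide RNA, at 0.25 (edgeR adjusted p = 0.203 and 0.519). Their median lay above the vehicle mean for gomisin G replicate 1 (0.24) but below it for replicate 2 (-0.11). All 7 of these box C/D genes were negative for replicate 2. In the H/ACA set NOP10 had 0.46, from 55.6 and 51.5 CPM in vehicle to 91.5 and 56.4 CPM with gomisin G, so its value rested mostly on replicate 1, and SHQ1 had -0.42. The 10 other scaffold genes had a median of 0.023, with NOP53 at 0.58 and ESF1 at -0.50 (edgeR adjusted p = 0.154 and 0.185). The scaffold median also changed sign between the gomisin G libraries, from 0.097 (replicate 1) to -0.18 (replicate 2). Of these 10 genes, 7 were negative for replicate 2 and 3 for replicate 1. None of the genes named in these snoRNP and scaffold sets passed the edgeR threshold.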

How the data were processed

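The authors deposited raw counts per gene in every file. Per the submitters' processing notes, fastp, HISAT2, featureCounts and hg38 were used; versions, strand setting and treatment of multiply mapped reads are not given in the sources used here. Per the labels, ribosomal RNA was depleted before library construction. The series table and the 4 sample tables differed in 0 values, and all 58735 gene coordinates equal those of GENCODE release 29, the source of exons, principal mRNAs and snoRNA genes.

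Genes were tested with edgeR 4.0.16 in R 4.3.3 (default expression filter, TMM factors, robust quasi-likelihood F test, treatment as the only term, 2 residual degrees of freedom), with Benjamini-Hochberg adjustment over 15721 genes. SEs are the log2 change over the root of F, and 95% intervals use the fit's total degrees of freedom. CPM of single genes use TMM factors, and values per replicate are log2 CPM with a prior count of 2. On simulated counts of these 15721 genes, the test recovered 2% of simulated 1.5-fold differences, 20% of 2-fold and 68% of 4-fold ones, with 1 false call. It made 0 calls in a run with no differences at all. The simulated spread was assumed, equal in both groups and independent between genes. It held neither the wider gap between the gomisin G libraries nor the length trend. These rates therefore do not give the error rate or the power for the members in the real libraries. DESeq2 1.42.0 and limma 3.58.1 were alternatives, beside other scaling and filters, removal of a trend on summed exon length, a replicate block and leaving out each library. The 40 members and the lists were chosen with earlier results of these data known. Values in every library are given for the 2 members of each role with the lowest p, the member highest per kilobase, and the member of opposite sign to its role's median with the lowest p; other pathway genes are those called and the 2 with the lowest p per role. Some marker genes are not reported here by name.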

Additional observations from a re-analysis of the deposited data

How the results depend on the processing

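The members' median of -0.37 stayed between -0.31 and -0.41 under every alternative run, leaving out each library included. The number of members called, 0 by edgeR, was also 0 with limma voom, RLE or upper-quartile factors, either other filter and the legacy fit, but 8 with DESeq2 and 9 after removing the length trend. Leaving out single libraries gave 0 (either vehicle library) to 21 (either gomisin G library). Over all genes, 287 calls became 883 with DESeq2 and 962 after removing the length trend. They became 160 and 135 without vehicle replicates 1 and 2, and 2835 and 6322 without gomisin G replicates 1 and 2. The median of the other pathway genes, -0.20, became -0.14 with upper-quartile factors and ranged from -0.21 (without vehicle replicate 2) to -0.12 (without gomisin G replicate 2). Upper-quartile factors moved the median of all genes from 0.0092 to 0.067 and left 32 of 40 members negative. The cause was not tested.

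Deviations of same-numbered libraries correlated at 0.215, and those of crossed numbers at -0.215. With 2 libraries per group these values are equal and opposite by construction, so the positive one is no sign of pairing. No label gives a shared batch, and same-numbered libraries share only a number. With the replicate number as a block, 13 members and 2886 genes were called, which is 18.4% of tested genes.

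Among the 18 members chosen by rule for values in every library, signs turned in 6. NHP2 had -0.0074 without the expression filter, -0.0018 with limma voom and -0.00078 with the replicate block. After removing the length trend NHP2 had -0.20, FBL -0.17, GAR1 -0.15 and NOB1 -0.15. Leaving out single libraries, NHP2 ranged from -0.17 to 0.16, FBL from -0.28 to 0.28, GAR1 from -0.19 to 0.27, NOB1 from -0.024 to 0.096, POLR1C from -0.025 to 0.53 and BOP1 from -0.18 to 0.012. The low end of the first 5 came without gomisin G replicate 1, and the high end of BOP1 without vehicle replicate 1. Without vehicle replicate 2 NHP2 had -0.063, FBL -0.089 and GAR1 -0.12. Of the other members, PPAN had 0.012 with upper-quartile factors, 0.19 without vehicle replicate 1 and 0.024 without gomisin G replicate 1, and PES1, RRP9, NIP7, NOP16, RRP12 and WDR12 each turned positive under at least 1 alternative.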
